A study of Mus musculus with 4 samples.

Results

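Interferon-high carcinoma cells were the tumour cells of MB49, a mouse bladder carcinoma line, that carried the most transcripts of 3 interferon-stimulated genes, Ifit1, Ifit3 and Cmpk2. They numbered 399 of 7973 carcinoma cells, in a series of 22115 cell barcodes. In these cells 43 of 53 measured antiviral effector genes were at least 2-fold higher than in the other carcinoma cells of both libraries. Of 8365 genes held to a higher minimum level, 1.09% were. Isg15, which took no part in the choice, was 12.2-fold higher in the male and 7.64-fold higher in the female library. The immune checkpoint ligand gene Cd274 was 6.89-fold and 5.06-fold higher, while the summed levels of MHC class II genes and of cell cycle genes were lower. Carcinoma cells were barcodes of the CD45-negative libraries with at least 2000 UMIs (unique molecular identifiers, each marking 1 captured transcript), at most 25% mitochondrially encoded UMIs, at least 3 UMIs of the keratin genes Krt8 and Krt18, and no UMI of Ptprc, the gene of the leukocyte protein CD45. Members were the 5% of these cells, both libraries pooled, with the largest share of UMIs from the 3 rule genes, and each was set against the rest of its own library. They are one end of a range, not a separate cell type. Because measured values chose the members, every difference from the rest is given as a description without a test.

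Interferons signal through receptors that activate Janus kinases such as Jak1. Type I interferons lead to a complex with Stat2 and Irf9 that binds the interferon-stimulated response element, and interferon-gamma acts mainly through gamma-activated sites. Ifit proteins bind foreign RNA and restrict its translation, Cmpk2 is a mitochondrial nucleotide kinase, and Isg15 is a ubiquitin-like protein. In tumours interferon-stimulated genes are known as a mark of antiviral signalling, and some of them encode chemokines and checkpoint ligands.

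The study compared tumours from male and female mice. After digestion of the tissue, live cells were sorted by CD45 and captured on BD Rhapsody, a microwell system that tags the 3′ end of transcripts, with 1 library for each of the 4 combinations of sex and fraction. The members come from the male and the female CD45-negative library, and the CD45-positive libraries are used for the interferon genes alone. No treatment, mouse strain, age or number of animals per library is given in the labels, so every difference between the libraries can be one between animals, captures or sexes, and these cannot be told apart.

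The CD45-negative libraries held 6023 (male) and 5152 (female) barcodes with 62273035 and 44601391 UMIs. At least 2000 UMIs were found in 4935 and 3572 barcodes, and after the remaining limits 4618 and 3355 carcinoma cells were left. Of the 10 carcinoma markers examined, Krt7, Krt20 and Epcam had no UMI in any member. These were not among the 7 markers with at least 20 UMIs in each library, a low level that limits what the zeros can show. Krt19, Sfn, Cldn4, Lcn2 and Perp had UMIs in members of both libraries beside the 2 keratins of the rule. The name carcinoma therefore rests here on Krt8, Krt18 and the sort. The 2 CD45-negative matrices shared no cell with identical counts, and their barcodes are given only as running numbers, so that shared barcodes could not be counted.

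The promoters of 4 of the genes with the largest differences are shown because they carry the letters of the response element that the antiviral genes are known for. Each line gives the bases from 200 before the start of transcription to the last base before it, from RefSeq on GRCm38.p6, written in the direction of the gene. Capitals mark matches to the motif searched, GAAA, any 2 bases and GAAA again, on either strand. A match on the other strand reads as TTTC, any 2 bases and TTTC.
Ifit1, chr19:34640689-34640888, + strand: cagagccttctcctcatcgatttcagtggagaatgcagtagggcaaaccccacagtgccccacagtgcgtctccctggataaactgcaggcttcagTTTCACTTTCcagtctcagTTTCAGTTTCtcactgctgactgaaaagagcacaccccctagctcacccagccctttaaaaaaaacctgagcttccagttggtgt
Ifit3, chr19:34583329-34583528, + strand: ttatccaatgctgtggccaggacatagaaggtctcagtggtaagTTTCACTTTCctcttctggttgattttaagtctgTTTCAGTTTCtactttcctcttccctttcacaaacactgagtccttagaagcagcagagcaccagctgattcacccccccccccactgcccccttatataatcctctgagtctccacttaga
Rsad2, chr12:26456453-26456652, - strand: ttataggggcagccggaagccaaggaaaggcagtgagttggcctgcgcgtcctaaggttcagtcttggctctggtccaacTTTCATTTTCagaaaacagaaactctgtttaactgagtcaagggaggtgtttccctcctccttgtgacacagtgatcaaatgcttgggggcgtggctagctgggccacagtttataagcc
Isg15, chr4:156200819-156201018, - strand: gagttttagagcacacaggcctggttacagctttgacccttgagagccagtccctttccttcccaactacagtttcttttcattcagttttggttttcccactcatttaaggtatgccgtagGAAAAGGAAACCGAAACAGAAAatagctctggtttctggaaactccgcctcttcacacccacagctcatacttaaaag
Ifit1 and Ifit3 had 2 matches each and Rsad2 had 1, all on the other strand. Isg15 had 3 overlapping matches on its own strand, between 78 and 57 bases before the start. Cmpk2, which lies next to Rsad2 in the opposite orientation, had no match in the same 200 bases. RefSeq and the annotation used for gene positions below place some starts a few bases apart. Over windows of 300 bases (250 before to 50 after the start), the motif was present for 1079 of 27025 genes (3.99%). Among genes at 10 CPM or more in both libraries (CPM, the UMIs of a gene per 1000000 UMIs summed over the cells of a class), 253 of the 6386 matched to a promoter had it, or 3.96%. A match is a run of letters and does not show binding.

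The rule score, the UMIs of Ifit1, Ifit3 and Cmpk2 per 1000000 UMIs of a cell, ran without a gap through the threshold. Its lowest value in a member was 1143 and its highest value in another cell 1142. The 10th member above the threshold stood at 1184 and the 10th cell below it at 1109.6. Within 20% of the threshold lay 74 members and 94 other cells. The highest score was 15845, the median of the members 2095 and the median of the rest 0.

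**Figure D1:**
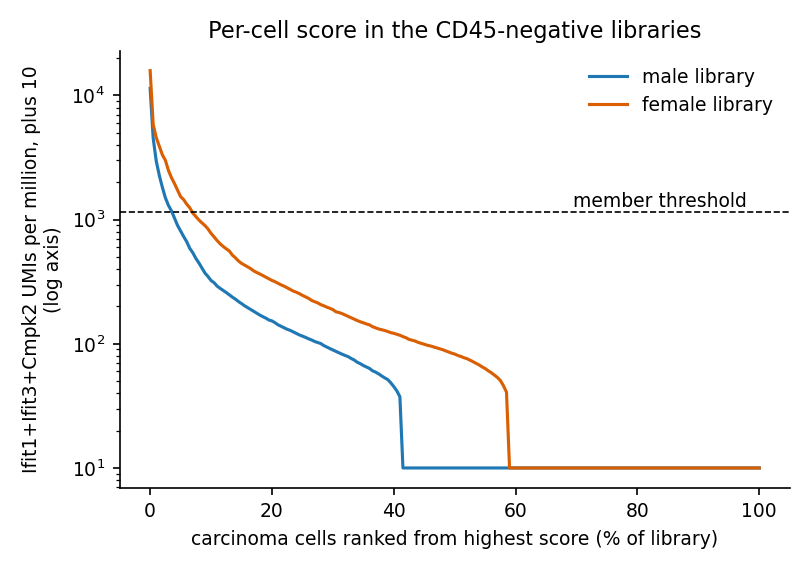
The score of each carcinoma cell (vertical log axis, UMIs of Ifit1, Ifit3 and Cmpk2 per 1000000, with 10 added so that cells without a UMI can be drawn) against its rank within the male (blue) or female (orange) CD45-negative library (horizontal axis, percent). The female line lies above the male line until both reach the floor of cells without a UMI, and the dashed line is the lowest member.

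The female library gave more of the members. There were 166 members in the male library, 3.59% of its carcinoma cells (exact binomial 95% interval 3.08 to 4.17), and 233 in the female library, 6.94% (6.11 to 7.86). Intervals here and below cover counting error only, and with 1 library of each sex no difference between the sexes could be tested. Cells with no UMI of the 3 genes made up 58.7% of male and 41.3% of female carcinoma cells at full depth, and 84.6% and 74.2% after every cell had been thinned to 2000 UMIs. No cell type known to lack these genes was at hand, so no background share from free RNA is given beside these. Members held a median of 22 (male) and 24 (female) UMIs of the rule genes, and 5 and 7 members held at most 5.

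Depth and RNA quality differed somewhat between members and the rest. Members had a median of 9748 (male) and 10725 (female) UMIs, against 11507.5 and 11754 in the rest. The median of mitochondrially encoded UMIs was 3.86% and 3.45% in members against 4.67% and 3.96% in the rest. Among cells with 5000 to 15000 UMIs, 92 genes were at least 2-fold higher in members in both libraries, against 91 among all. At least 2-fold lower in both were 48 genes, against 17 among all. Of 100 ratios of named genes past 2-fold, rule genes included, 83 stayed past it in these cells. The part of mitochondrial RNA in the results was not tested.

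The 3 rule genes lie in 2 places of the mm10 genome: Ifit1 (chromosome 19, 34640871 to 34650009, + strand) and Ifit3 (chromosome 19, 34583531 to 34588731, + strand) in the Ifit cluster, and Cmpk2 (chromosome 12, 26469204 to 26479837, + strand) beside Rsad2 (chromosome 12, 26442746 to 26456452, - strand), by the GENCODE M21 annotation. Ifit1 stood at 1243 CPM in members against 30 CPM in the rest of the male library, and 1349 against 62.1 CPM among the female cells. The level of Ifit3 was 932 CPM in members against 20.6 CPM in the rest of the male library, and 943 against 34.5 CPM among the female cells, and that of Cmpk2 609 CPM in members against 27.2 CPM in the rest of the male library, and 563 against 36.2 CPM among the female cells. These values restate the choice of the cells. Isg15 (chromosome 4, 156199424 to 156200818, - strand), the marker outside the rule, reached 185 CPM in members against 15.2 CPM in the rest of the male library, and 239 against 31.4 CPM among the female cells. Its member:rest ratios were 12.2 (95% interval 10.7 to 13.8) and 7.64 (6.93 to 8.41), so that both libraries placed members above the rest. Rsad2, whose product viperin makes an antiviral nucleotide, reached 1225 CPM in members against 39 CPM in the rest of the male library, and 1244 against 52.8 CPM among the female cells, which gave ratios of 31.4 (95% interval 29.6 to 33.3) and 23.5 (22.3 to 24.9).

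Among genes at 10 CPM or more, those 2-fold apart in both libraries were few and mostly higher in members, whereas smaller differences were more often downward. Of 8365 genes with at least 10 CPM over all carcinoma cells of each library (rule genes, sex-linked, mitochondrial and haemoglobin genes left out), 91 were at least 2-fold higher in members in both libraries (1.09%) and 17 at least 2-fold lower in both (0.203%). Members count towards this minimum, so a gene much higher in them can reach it through them. Taken singly, the male library had 145 genes at least 2-fold higher (1.73%) and 121 lower (1.45%), and the female library 92 (1.1%) and 67 (0.801%). At 1.5-fold in both libraries there were 154 higher (1.84%) and 213 lower genes (2.55%). Of all 8365 genes, 2155 were above the rest in both libraries by any amount (25.8%) and 3778 below it (45.2%). Among 14118 genes with at least 20 UMIs in each library, the minimum used for gene lists, these shares were 23.8% above and 41.6% below. Of the same 14118 genes, 170 were at least 2-fold higher in both libraries and 403 at least 2-fold lower, so the excess of higher genes depended on the minimum. The median log2 ratio over all 8365 genes was -0.09 (male) and -0.06 (female). A total of 65 of the 91 higher genes belong to the gene lists described below. Beside Rsad2, the largest ratios were those of Ifit3b (42.2 and 26.1 in the male and the female library), a near copy of Ifit3 whose reads the counting could have split, and of Usp18 (18.3 and 8.82), the protease that removes Isg15 and dampens the receptor. Next came Isg15 itself, Slfn8 (10.3 and 7.05), Ifi44 (10.8 and 6.42), Ifit2 (8.08 and 5.67), Rtp4 (8.34 and 5.48), Slfn5 (7.61 and 5.25) and Phf11d (7.58 and 5.17). The pseudogene Gm8995 (8.55 and 4.81) and the apolipoprotein L gene Apol9a (7.49 and 4.96) also stood among the 20 largest, and reads of Apol9a could have been split with its near copy Apol9b. Of the 70 higher genes matched to a promoter, 36 held the GAAA repeat (51.4%), beside 3.96% of the genes tested. None of the 13 matched lower genes held it.

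**Figure D2:**
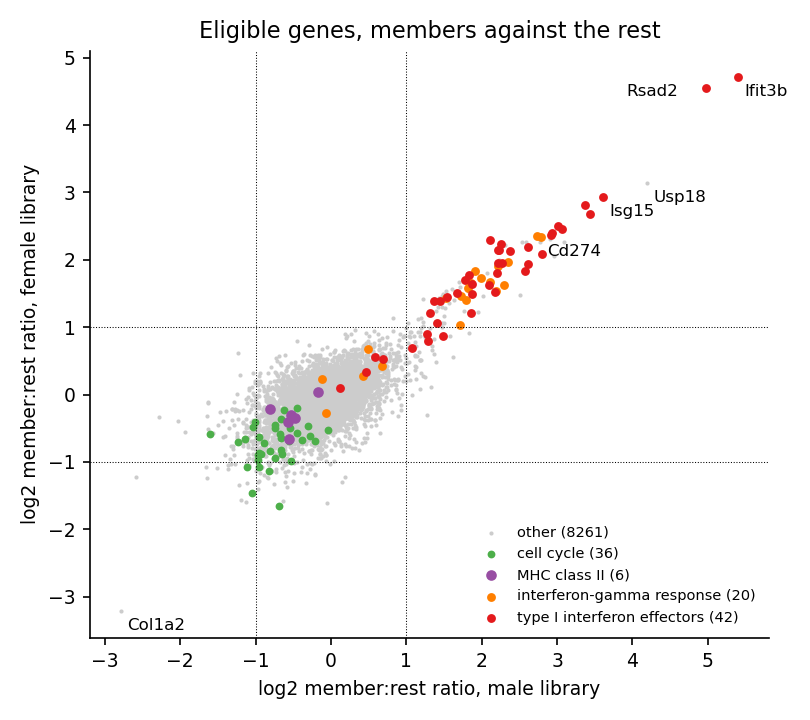
The log2 member:rest ratio of each eligible gene in the male library (horizontal) and the female library (vertical), coloured by gene list, with dotted lines at 2-fold. Type I interferon effectors (red) and interferon-gamma response genes (orange) make up much of the upper right, with Rsad2 at 4.97 and 4.56 and Cd274 at 2.78 and 2.34, and others of the same lists lie closer to 0. Most cell cycle genes (green) and MHC class II genes (purple) lie below 0.

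The type I interferon effectors, a list of 56 antiviral genes without the 3 of the rule, were higher almost throughout. Of 53 with at least 20 UMIs in each library, 43 were at least 2-fold higher in both libraries and none at least 2-fold lower in both. Among the 8365 genes, held to the higher minimum of 10 CPM, these shares were 1.09% and 0.203%. Of 14118 genes at the list minimum of 20 UMIs, 170 were at least 2-fold higher in both and 403 lower. Against a median near 0 for all genes, the median log2 ratio of the list was 2.22 (male) and 1.84 (female). Mx1 and Mx2, dynamin-like GTPases that block viral nucleocapsids, had ratios of 24.2 (95% interval 18.9 to 30.9) and 8.41 (6.51 to 10.8) for Mx1 and 19 (95% interval 14.4 to 24.9) and 11.2 (8.56 to 14.5) for Mx2. Oasl2, of the oligoadenylate synthetase family, stood at 591 CPM in members against 96.6 CPM in the rest of the male library, and 605 against 132 CPM among the female cells. The RNA-activated kinase gene Eif2ak2 had ratios of 3.67 and 3.13 and the RNA-editing gene Adar 3.44 and 3.25. The list also held exceptions: Ifi202b, with 2 and 7 UMIs in members, had ratios of 0.241 (95% interval 0.029 to 0.879) and 1.23 (0.481 to 2.65). Others were near the level of the rest: Ifitm3, which blocks viral entry, had ratios of 1.38 and 1.26 and Ifi27 1.09 and 1.07.

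All 6 genes of the Isg15 conjugation cycle were at least 2-fold higher in both libraries, beside 1.09% of genes at 10 CPM or more. Uba7, the activating enzyme, had ratios of 2.64 (95% interval 1.81 to 3.74) and 2.51 (1.75 to 3.52), and Ube2l6, the conjugating enzyme, of 2.77 (95% interval 2.49 to 3.08) and 2.08 (1.86 to 2.33). The ligases Herc6 (4.32 and 4.92) and Trim25 (4.73 and 3.92) and the protease Usp18 completed the set, with Usp18 at 315 CPM in members against 17.3 CPM in the rest of the male library, and 295 against 33.5 CPM among the female cells.

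Within the signalling pathway Stat2, Irf7 and Irf9 were higher and the receptor subunits were near the rest. Irf7, the amplifier of type I interferon genes, stood at 210.4 CPM in members against 30.8 CPM in the rest of the male library, and 232 against 48.1 CPM among the female cells. Stat2 had ratios of 4.7 (95% interval 4.15 to 5.31) and 4.0 (3.63 to 4.4), and Irf9 of 3.53 and 2.9. The receptor subunits Ifnar1 (0.684 and 1.07) and Ifnar2 (1.16 and 1.09) and the kinase Jak1 (0.887 and 1.05) were within 1.5-fold of the rest. Irf3, which carries the first signal from nucleic acid sensors, had ratios of 0.663 and 0.78, and the feedback inhibitor Socs1 of 0.953 and 0.831. Of 20 signalling genes, 5 were at least 2-fold higher in both libraries, beside 1.09% of genes at 10 CPM or more. None was 2-fold lower. The median log2 ratio of the list was 0.09 (male) and 0.12 (female).

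The RNA sensors were higher, while the adaptors of RNA and of DNA sensing were both near the level of the rest. Ifih1 (MDA5), which binds long double-stranded RNA, stood at 269 CPM in members against 46.3 CPM in the rest of the male library, and 242 against 50.4 CPM among the female cells. Ddx58 (RIG-I), which binds RNA ends, had ratios of 3.05 (95% interval 2.77 to 3.35) and 2.95 (2.72 to 3.2), and Dhx58 (LGP2) of 6.02 and 4.79. The endosomal receptor Tlr3 had ratios of 3.23 and 3.17 and Zbp1, a sensor of Z-form nucleic acid, of 2.84 and 2.09. Tmem173 (STING), the DNA-sensing adaptor, had ratios of 0.864 and 0.887 and Mavs, the adaptor of the RNA sensors, of 0.908 and 1.06. Ifih1, Ddx58, Dhx58, Tlr3 and Zbp1 were the 5 of 10 measured sensor genes at least 2-fold higher in both libraries. The share among genes at 10 CPM or more was 1.09%.

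No interferon gene had a UMI in any member. Of the 21 interferon genes looked for, 10 were listed in any of the matrices, and for the others it cannot be told whether they were measured. Ifnb1, Ifng, Ifna2, Ifna4 and Ifnl2 were listed in CD45-positive matrices alone. Whether the CD45-negative libraries measured them cannot be told either. In the CD45-positive libraries Ifnb1 had 16 (male) and 23 (female) UMIs and Ifng 325 and 495. The few UMIs of Ifnk, Ifnz, Ifna16, Ifnab and Ifne in the other carcinoma cells came to 15 in all. Even for a listed gene, a low level in members could not have been detected at this depth. The limit that a count of 0 allows, 3 UMIs, corresponds to 1.59 CPM over the male members and 1.12 CPM over the female ones.

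Genes known as targets of interferon-gamma were higher too, although type I interferon also raises many of them. Of 25 measured, 18 were at least 2-fold higher in both libraries, beside 1.09% of genes at 10 CPM or more, and none 2-fold lower. The median log2 ratio of the list was 1.82 (male) and 1.53 (female). Gbp2, a guanylate-binding protein that attacks pathogen vacuoles, stood at 1003 CPM in members against 289 CPM in the rest of the male library, and 996 against 378 CPM among the female cells. The immunity-related GTPase genes Iigp1 and Igtp had ratios of 4.57 and 2.9 and of 3.97 and 3.3. Nos2, which makes nitric oxide, stood at 745 CPM in members against 227 CPM in the rest of the male library, and 1036 against 504 CPM among the female cells. Irf1, an early target of interferon-gamma, had ratios of 1.35 (95% interval 1.18 to 1.54) and 1.21 (1.1 to 1.33). After thinning to 2000 UMIs, at least 3 UMIs of the list were found in 92.8% of male members against 42.6% of the rest, and in 91.4% of female members against 56.3%. Of the 14 genes of the list matched to a promoter, 10 held the GAAA repeat and 7 held TTCNNNGAA, the letters of a gamma-activated site (its own reverse complement), which 8.14% of the genes tested held.

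The summed level of MHC class I genes was slightly higher and that of MHC class II lower. Of 24 class I presentation genes, 21 were above the rest in both libraries, beside 23.8% of all genes with the same minimum of UMIs, but Nlrc5, the class I transactivator, alone reached 2-fold in both, with ratios of 2.04 (95% interval 1.48 to 2.74) and 2.09 (1.58 to 2.72). With all cells thinned to 2000 UMIs its female log2 ratio turned to -0.23. H2-K1 stood at 2743 CPM in members against 2199 CPM in the rest of the male library, and 3762 against 2841 CPM among the female cells, and B2m, the shared light chain, had ratios of 1.57 and 1.45. The peptide transporter gene Tap1 had ratios of 2.14 (95% interval 1.95 to 2.34) and 1.83 (1.7 to 1.96). The summed class II level had ratios of 0.678 (95% interval 0.647 to 0.711) and 0.801 (0.762 to 0.842). Of 7 class II genes, 6 were below the rest in both libraries, where 41.6% of all genes were too, and none was 2-fold lower in both. Cd74, the class II invariant chain, stood at 305 CPM in members against 441 CPM in the rest of the male library, and 228 against 281 CPM among the female cells, with ratios of 0.69 (95% interval 0.634 to 0.75) and 0.81 (0.745 to 0.878). H2-Aa and H2-Ab1, the chains of the I-A molecule, had ratios of 0.671 and 0.751 and of 0.721 and 0.785. Ciita, the class II transactivator, had 5 and 3 UMIs in the members, and the intervals of its ratios, 0.648 (95% interval 0.208 to 1.53) and 0.364 (0.074 to 1.09), include 1.

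Cd274, the gene of PD-L1, which restrains T cells through PD-1, stood at 87.4 CPM in members against 12.7 CPM in the rest of the male library, and 144 against 28.5 CPM among the female cells. Its ratios were 6.89 (95% interval 5.79 to 8.17) and 5.06 (4.5 to 5.69). The female levels lay above the male ones in members and in the rest alike. Among 14 measured checkpoint and cytokine genes, Cd274, Tnfsf10 (3.94 and 3.07), a death ligand, and Il15 (3.38 and 3.03), a growth factor of NK and memory T cells, were at least 2-fold higher in both libraries. The share among genes at 10 CPM or more was 1.09%. Cd47, the signal against phagocytosis, had ratios of 1.08 and 0.938.

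Of 13 measured chemokines, Cxcl10, Cxcl11 and Ccl5, which draw T cells, were at least 2-fold higher in both libraries. Among genes at 10 CPM or more, 1.09% were at least 2-fold higher in both and 0.203% at least 2-fold lower. At the minimum of 20 UMIs used for lists, 170 of 14118 genes were higher and 403 lower. Cxcl5 and Cxcl14 were at least 2-fold lower in both, but Cxcl5 had only 0 and 3 UMIs in members, and Cxcl14 turned to log2 ratios of 1.45 and 0.22 without the few cells rich in fibroblast markers described below. Cxcl10, a ligand of Cxcr3 on T cells, stood at 756 CPM in members against 123 CPM in the rest of the male library, and 406 against 106 CPM among the female cells. Cxcl11, another Cxcr3 ligand, had ratios of 10.4 (95% interval 7.09 to 14.9) and 6.83 (3.68 to 12.2), from 41 and 18 UMIs in members. Ccl5, which draws T cells and monocytes, stood at 227 CPM in members against 83.9 CPM in the rest of the male library, and 152 against 56.2 CPM among the female cells. Cxcl9, the Cxcr3 ligand that depends most on interferon-gamma, had smaller ratios of 1.6 and 1.35, and 1 cell held 21.2% of its UMIs in the female members. The neutrophil chemokines Cxcl1 (0.69 and 0.745) and Cxcl2 (0.646 and 0.796) were lower in members. Ccl2, for monocytes, had ratios of 1.1 and 0.83.

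**Figure D3:**
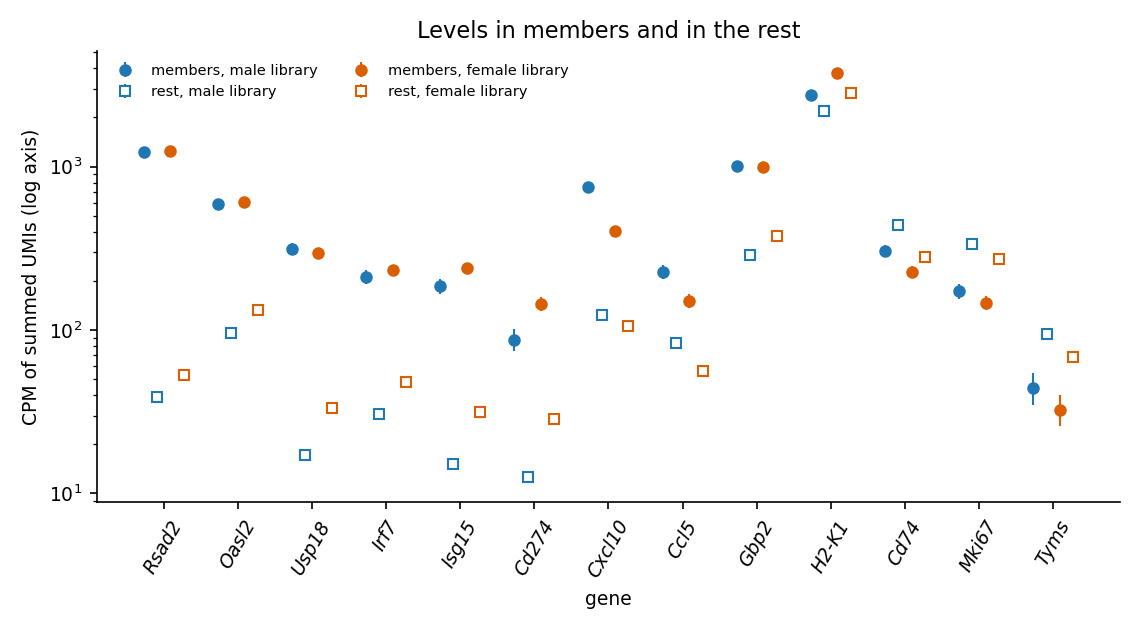
CPM of the summed UMIs (vertical log axis) of 13 genes in members (filled circles) and in the rest (open squares) of the male (blue) and female (orange) library, with exact 95% counting intervals where they are wider than the symbol. Members are above the rest in both libraries from Rsad2 to H2-K1 and below it for Cd74, Mki67 and Tyms; Cxcl10 is higher in male than in female members.

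The effector programme increased from bin to bin of the score, below the threshold as well as above it. Carcinoma cells were placed in 6 bins: no rule UMI, a rule UMI but below the top 20%, the top 20% to 10%, the top 10% to 5%, and the members below and above their median score. The median depth was 15513 (male) and 14340.5 (female) UMIs in the bin with a rule UMI below the top 20%. In all other bins it lay between 9748 and 10774.5. The part of depth in the differences between bins was not tested. The summed level of the type I effectors went from 5436 and 4645 CPM (male and female) in cells without a rule UMI to 10483 and 8983 CPM just below the threshold and 19198 and 16253 CPM in the members above their median score. Rsad2 went from 22.1 and 23.5 CPM to 272 and 223 and 1937 and 1929 CPM over the same bins. Cd274 went from 9.62 and 14.4 to 51.3 and 68.7 and 119.9 and 152 CPM. The class II genes followed another course: their summed level was 1344 and 619 CPM without a rule UMI, highest at 1669 and 947 CPM in the top 20% to 10%, and 832 and 532 CPM in the top bin of members. In that top bin Cxcl10 had 1220.0 CPM (male) and 499 CPM (female), against 347 and 319.8 CPM in the other members.

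**Figure D4:**
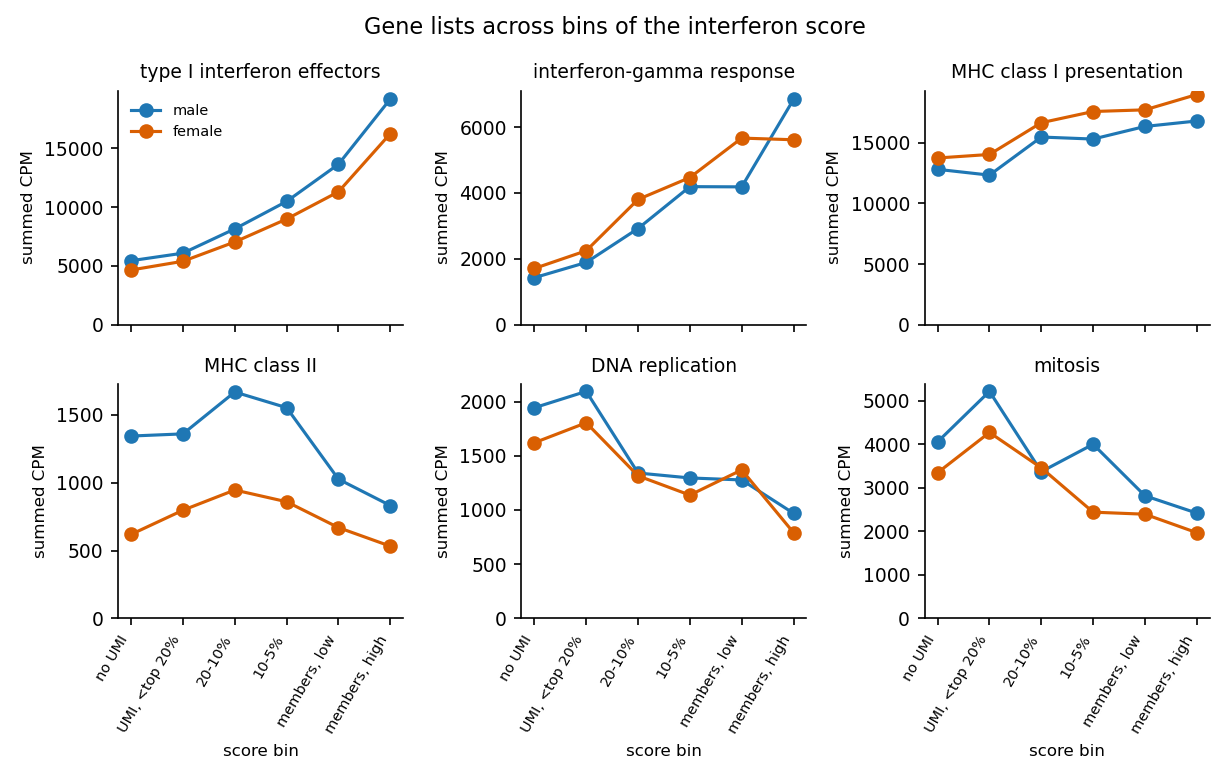
Summed CPM of 6 gene lists (vertical axes, from 0) in 6 bins of the rule score (horizontal axis, from cells without a rule UMI to the members above their median score) in the male (blue) and female (orange) library. Effector levels increase from bin to bin and MHC class II peaks in the top 20% to 10%. Both cell cycle lists are highest in the bin with a rule UMI below the top 20%, which holds the deepest cells, and end at their lowest level.

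Cell cycle genes were lower in members. All 17 DNA replication genes and all 20 mitosis genes were below the rest in both libraries, beside 41.6% of all genes, although 1 of each list, Tyms and Cdc20, was 2-fold lower in both. The list medians were -0.93 (male) and -0.62 (female) for replication and -0.68 (male) and -0.77 (female) for mitosis, on the log2 scale. Tyms, which makes thymidylate, stood at 44 CPM in members against 95.1 CPM in the rest of the male library, and 32.5 against 68.4 CPM among the female cells. Birc5 (survivin), of the chromosomal passenger complex, had ratios of 0.514 (95% interval 0.472 to 0.559) and 0.477 (0.437 to 0.518), and Top2a, the topoisomerase of dividing cells, of 0.543 (95% interval 0.511 to 0.576) and 0.608 (0.577 to 0.64). Mki67, the gene of the proliferation antigen Ki-67, stood at 173 CPM in members against 338 CPM in the rest of the male library, and 147 against 274 CPM among the female cells. At a fixed depth of 2000 UMIs, at least 3 UMIs of the mitosis list were found in 27.1% of male members (20.5 to 34.5) against 51.1% of the rest (49.7 to 52.6), and in 25.8% of female members (20.3 to 31.9) against 46.3% (44.6 to 48.1). Ccnd2, a cyclin of the first gap phase, lay the other way, at 117 CPM in members against 30.2 CPM in the rest of the male library, and 117 against 50.2 CPM among the female cells.

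Beside the cell cycle, the 17 lower genes held Ulbp1, a ligand of the activating receptor NKG2D on NK cells, at 31.3 CPM in members against 72.5 CPM in the rest of the male library, and 28 against 70.9 CPM among the female cells. Uhrf1, which maintains DNA methylation, had ratios of 0.458 and 0.491, and Pclaf, a partner of the replication clamp, of 0.388 and 0.483. Col1a2 and Bgn, genes of a collagen chain and a matrix proteoglycan, had the ratios 0.145 and 0.108 and 0.438 and 0.339, but these rested on few cells of the rest. Cells with at least 10 UMIs of the fibroblast markers Col1a2, Lum and Dpt numbered 7 of 4452 and 23 of 3122 in the rest. Among members they were 0 of 166 and 0 of 233, which allows a share of up to 2.2% and 1.57%. Without these cells the log2 ratio of Col1a2 was -0.31 and -0.08, and that of Bgn -0.32 and 0.16. The number of genes 2-fold lower moved with the settings, from 4 for genes of at least 50 CPM to 66 for the 2% of cells with the highest score. It was 403 of 14118 when genes needed only 20 UMIs in each library.

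The members were not the carcinoma cells with the most MHC class II. For comparison the 5% of carcinoma cells with the largest share of Cd74, H2-Aa, H2-Ab1 and H2-Eb1 were taken, 333 male and 66 female cells. They shared 6 cells with the members, 1.5% of either set. The shared cells were 3.01% of male members (0.985 to 6.89) against 7.37% of the rest, and 0.429% of female members (0.0109 to 2.37) against 2.08% of the rest. In the class II-high cells the type I effector list stood at a median log2 ratio of 0.12 and 0.04, and Rsad2 had ratios of 0.953 and 0.629 and Isg15 of 0.654 and 0.879. Gbp2 (2.57 and 3.29) was higher in the class II-high cells as well as in the members, whereas Cxcl9 (4.84 and 4.97) and Ciita (5.08 and 8.25) were higher in the class II-high cells without a like difference in the members. In that contrast 22 of 8361 genes were 2-fold higher in both libraries (0.263%) and 19 lower (0.227%). Both sets were chosen from measured levels of the same cells, so neither contrast is a test.

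**Figure D5:**
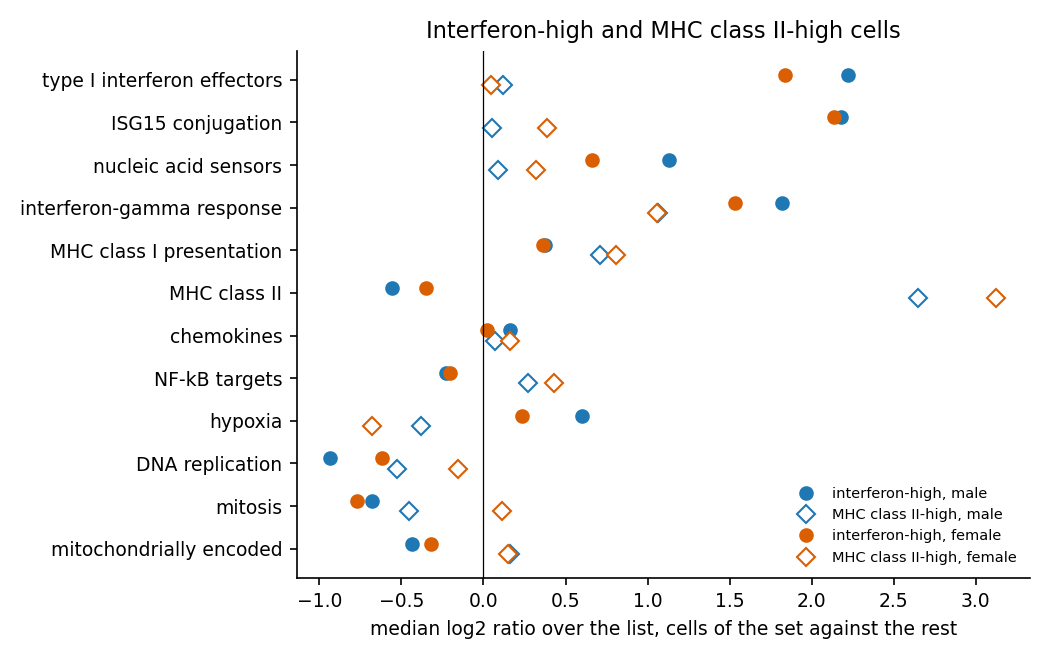
The median log2 ratio over each gene list (horizontal axis) for interferon-high cells (filled circles) and MHC class II-high cells (open diamonds), each against the other carcinoma cells of the male (blue) or female (orange) library. Interferon-high cells stand apart on the type I effectors (2.22 and 1.84), class II-high cells on MHC class II (2.65 and 3.13), and both sets are above 0 for the interferon-gamma response.

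The female:male ratio of the level was taken for 8 genes outside the rule, picked for their function, and was further from 1 in the rest than in members for 7 of them: Isg15, Rsad2, Usp18, Oasl2, Cd274, Cd74 and Mki67, with overlapping intervals for Mki67. Cxcl10 lay the other way. The same count was not made over all genes. Among members the ratio was 1.02 (0.962 to 1.07) for Rsad2, 0.936 (0.84 to 1.04) for Usp18, 1.02 (0.948 to 1.11) for Oasl2 and 1.29 (1.13 to 1.47) for Isg15. In the rest the same ratios were 1.35 (1.27 to 1.44), 1.94 (1.78 to 2.11), 1.37 (1.32 to 1.42) and 2.06 (1.89 to 2.25). All 3 rule genes were further apart in the rest as well, and a common threshold makes members alike in them by construction. Rsad2, Usp18 and Isg15 increased from bin to bin of the score, so the threshold can make members alike in these too, which was not tested. Cd274 was higher in the female library in both classes, with a ratio of 1.65 (1.37 to 1.99) in members and 2.24 (2.04 to 2.47) in the rest. Cxcl10 was lower in female members, with a ratio of 0.537 (0.496 to 0.582), and had a ratio of 0.86 (0.827 to 0.893) in the rest. No difference between the sexes could be tested with 1 library each.

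Markers of other cell types were looked for in the members. Of 12 macrophage markers, 9 (male) and 8 (female) had a UMI in members, and the summed level was 108 against 57 CPM (male) and 171 against 113 CPM (female). Cd68, a lysosomal protein gene, made up most of it, at 81.6 CPM in members against 31.8 CPM in the rest of the male library, and 155 against 87.7 CPM among the female cells. Adgre1 and Csf1r, which define macrophages, were at 0 in members, but the rest of each library held only 1 UMI of Adgre1 and 9 of Csf1r, too few for these zeros to tell members from the rest. The complement genes C1qa, C1qb and C1qc had 1, 4 and 2 UMIs in male members, with ratios of 1.53, 1.61 and 1.42 whose intervals include 1, and 0, 1 and 0 UMIs in female members. Apoe, a lipid carrier gene of macrophages, had 6 and 9 UMIs in members and ratios of 1.26 (95% interval 0.454 to 2.8) and 1.29 (0.575 to 2.55). Of 13 T and NK cell markers, 2 and 3 had a UMI in members, with sums of 3.71 against 6.17 and 8.22 against 6.14 CPM, and Cd3e, Cd3d and Cd3g were at 0, with 3 UMIs of Cd3d in the male rest as their only UMIs among carcinoma cells. The dendritic cell list was higher, at 548 against 233 CPM and 646 against 393 CPM, of which Bst2, itself an interferon-stimulated gene, made up 518 and 588 CPM in members. Clec9a, Cd209a and Siglech were at 0 in members and in the rest. The part of these cells' markers in the results was not tested. Cells with at least 3 UMIs of leukocyte genes were 0 of 166 male members, which allows a share of up to 2.2%, beside 0.898% of the male rest (40 of 4452). They were 2.58% of female members (6 of 233) beside 1.22% of the female rest (38 of 3122). The summed level of these genes had ratios of 0.822 (95% interval 0.524 to 1.23) and 1.38 (1.07 to 1.76), the female one above 1. Without such cells 92 genes were 2-fold higher in both libraries.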

How the data were processed

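Single-cell RNA sequencing of sorted MB49 tumour cells gave 4 libraries, of which the 2 CD45-negative ones hold the cells described. The deposited matrices hold raw UMI counts per gene and cell, per the file headers and values. Per the submitters' processing notes, UMI-tools, Seurat and CASAVA 1.8 were used with the build mm10; the aligner is not stated there. Gene positions are from GENCODE M21 and promoters from RefSeq (GRCm38.p6).

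Counts were summed over members and over the rest of each library and given as CPM with exact Poisson intervals. For member:rest ratios the interval is the exact conditional binomial one, and for shares the Clopper-Pearson one, each at 95% and for counting error only (Python 3.11.15, numpy 2.4.6, scipy 1.17.1, pandas 2.3.3, matplotlib 3.10.9). The intervals treat UMIs as independent. No p-value was computed, because the rule used these measurements and each group had 1 library. Eligible genes had at least 10 CPM in both libraries, and a gene of a list needed 20 UMIs in each. A gene was called at 2-fold in both libraries. The text names the rule genes, Isg15, genes from the 20 largest and 10 smallest ratios, and from each list the genes with the largest and smallest ratio and the most UMIs. Further genes are named for their function, and these, like the members and the lists, were chosen with earlier results of these data known. Doublets were not called. Some single genes are not reported here. Alternatives left out the 5% deepest cells or cells with leukocyte transcripts, and for a fixed depth each cell was thinned to 2000 UMIs. The code was tested on simulated counts.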

Additional observations from a re-analysis of the deposited data

How the results depend on the processing

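Of 1447 alternative values of the named genes past 2-fold, 1438 kept their sign and 1296 stayed past 2-fold in their library. These values include those of the 3 rule genes, which chose the members again in every setting. Their part of both counts was therefore largely fixed by the choice. Results are limited by 1 library of each sex and by the number of members. The share of members was 1.28% (male) and 2.98% (female) for the top 2%, 7.32% and 13.7% for the top 10%, 5.00% and 5.01% when ranked within each library, and 5.70% and 11.7% after thinning to 2000 UMIs, where tied scores admit more cells. The number of genes at least 2-fold higher, 91, lay between 71 and 100 in most other settings. It was 170 when genes needed only 20 UMIs in each library and 44 for genes of at least 50 CPM. The number at least 2-fold lower, 17, was 9 with at least 10 keratin UMIs, 66 for the top 2%, 5 for the top 10%, 26 when members were chosen on one part of the UMIs and read in the other, 37 after thinning, 36 as a mean over cells, 28 without the 5% deepest cells, 403 with the minimum of 20 UMIs alone, 4 at 50 CPM and 48 in cells with 5000 to 15000 UMIs. The cause was not tested. The male median of the type I effectors, 2.22, was 2.56 for the top 2%, 1.94 for the top 10% and 1.70 after thinning, and the female median, 1.84, was 1.43 after thinning. After thinning, the female log2 ratio of Nlrc5 was -0.23 and that of Tedc1 0.074. The log2 ratio of the chemokine gene Cxcl14 turned to 1.63 (male) and 0.35 (female) with at least 10 keratin UMIs and to 1.45 and 0.22 without cells rich in Col1a2, Lum and Dpt, and that of Bgn to 0.16 (female) without the same cells. The last setting and the range of 5000 to 15000 UMIs were added after the data were seen. The filters on low genes were not run for the list medians, which have their own minimum. No paired analysis was possible because each group had 1 library without a replicate number.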

Other observations

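Hypoxia and oxidative stress genes differed less than the effector genes. Of 14 hypoxia genes, 10 were above the rest in both libraries, beside 23.8% of all genes with at least 20 UMIs in each library, and none was 2-fold higher in both, with a median log2 ratio of 0.60 (male) and 0.23 (female). Ero1l, an oxidase of protein folding, stood at 1702 CPM in members against 773 CPM in the rest of the male library, and 2448 against 1648 CPM among the female cells. Adm, the gene of adrenomedullin, had ratios of 2.39 (95% interval 2.13 to 2.66) and 1.2 (1.11 to 1.3), and Car9, a carbonic anhydrase, of 2.41 (95% interval 2.19 to 2.66) and 0.808 (0.642 to 1.01), so that the libraries lay on opposite sides for Car9. Hmox1, which breaks down haem, stood at 89.6 CPM in members against 35.8 CPM in the rest of the male library, and 321 against 295 CPM among the female cells. Carcinoma cells with the most Hmox1, taken as the top 5% by its share of UMIs (45 male and 354 female cells), shared 26 cells with the members: 2.41% of male members beside 0.921% of the male rest, and 9.44% of female members beside 10.6% of the female rest. The female log2 ratio of Hmox1 lay at -0.04 after thinning to 2000 UMIs. The heat shock gene Hspa1b had ratios of 2.57 and 1.52 and the p53 target gene Cdkn1a of 0.979 and 1.06. The list of 14 p53 targets had a median log2 ratio of 0.02 (male) and -0.02 (female).

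Among 16 measured cell death genes Daxx, a histone chaperone of the nuclear bodies built by Pml, was at least 2-fold higher in both libraries, at 139 CPM in members against 28 CPM in the rest of the male library, and 134 against 29 CPM among the female cells. Of genes at 10 CPM or more, 1.09% were at least 2-fold higher in both. Mlkl, the membrane pore protein of necroptosis, had ratios of 2.22 (95% interval 1.93 to 2.54) and 1.91 (1.68 to 2.16), and the inflammatory caspase gene Casp4 of 1.47 and 1.49. Of 12 NF-kB target genes, 9 were below the rest in both libraries and 1 above it, beside 41.6% and 23.8% of all genes, with a median log2 ratio of -0.23 (male) and -0.21 (female). Tnf, the gene of an inflammatory cytokine, was the 1 gene of this list 2-fold lower in both, with ratios of 0.294 (95% interval 0.00737 to 1.67) and 0.269 (0.0322 to 0.995) from 1 and 2 UMIs in members. Of 10 mitochondrially encoded genes, 9 were below the rest in both libraries, with a median log2 ratio of -0.44 (male) and -0.32 (female). The share of 41.6% below the rest was taken without mitochondrially encoded genes. One of the list, mt-Nd3, was at least 2-fold lower in both libraries and had no UMI in female members. Their levels move with the share of mitochondrial UMIs, a measure of cell quality, which was lower in members, and its part was not tested.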
